A study of Mus musculus with 15 samples.

Results

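Glutamate receptor and auxiliary subunit genes were described in motor neurons of a mouse model of spinal muscular atrophy (SMA). The members are the 35 of 36144 gene symbols in the gene table that name an AMPA receptor subunit (Gria1 to Gria4), an NMDA receptor subunit (Grin1, Grin2a to Grin2d, Grin3a, Grin3b), a kainate receptor subunit (Grik1 to Grik5), a delta receptor (such as Grid1), a metabotropic receptor (such as Grm5 and Grm7) or an auxiliary gene. The auxiliary genes are the transmembrane AMPA receptor regulatory proteins (Cacng2 to Cacng5, Cacng7, Cacng8), their relative Cacng6, and the cornichons (Cnih2, Cnih3). All 35 were taken by name, and this choice was made with earlier results of these data known. Motor neurons of the upper lumbar cord were cut out by laser at postnatal day 6, and their polyadenylated RNA was amplified and sequenced in 15 libraries, 3 for each of 5 groups. All mice were FVB and carried the human SMN2 and SMNΔ7 transgenes, so wild type (WT, Smn+/+) and SMA (Smn-/-) littermates differed at the mouse Smn1 locus. WT and SMA mice received vehicle. The other 3 groups were SMA mice injected intraperitoneally each day from postnatal day 0 with MW150, an inhibitor of p38 MAP kinase, at 5 mg/kg, with Pifithrin-α, an inhibitor of p53, at 2.2 mg/kg, or with SMN-C3 (3 mg/kg), a compound that modifies how SMN2 is spliced. Both sexes were used equally. The labels do not say which animals, or how many, went into a library, so p-values measure the spread between these libraries, which may be technical in part.

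Glutamate is the main excitatory transmitter of the spinal cord, and motor neurons receive it from sensory afferents and interneurons. AMPA, NMDA and kainate receptors are ion channels assembled from 4 subunits, and metabotropic receptors signal through G proteins. The AMPA subunit GluA2, made from Gria2, keeps calcium out of the channel once its RNA has been edited, and the flip and flop forms of each AMPA subunit differ in how fast the channel desensitises. In SMA mice motor neurons lose glutamatergic synapses from proprioceptive afferents.

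Levels are given as TPM, transcripts per 1000000, which are scaled by transcript length. Comparison between genes is limited where short or non-coding transcripts hold much of the TPM, as given below. Mouse Smn1, the gene the SMA mice lack, was at 8.97 to 23.3 TPM in the 3 WT libraries and at 0 to 1.498 TPM in the other 12. The 8 motor neuron markers summed to between 1411 and 2706 TPM in the WT libraries and between 2336 and 2900 TPM in the SMA libraries. Library 1 of WT and library 3 of SMA+Pifithrin-α stood apart. Mitochondrially encoded genes took 21.9% and 20.4% of their TPM against 3.76% to 12.6% in the other 13, and their summed motor neuron markers, 1411 and 1096 TPM, were the lowest of the 15. Markers of other cells differed between groups. The 8 microglial markers summed to between 18.8 and 47.1 TPM in WT, 83.5 and 128.8 in SMA, 73.6 and 95.5 with MW150, 24.6 and 70.6 with Pifithrin-α, and 41.2 and 57.4 with SMN-C3. The 8 astrocyte markers summed to between 746 and 1453 TPM in WT, against 1347 to 1822 TPM in SMA, and all 8 of each list had a higher mean in SMA. The 9 oligodendrocyte markers ranged more widely (646 to 1910 TPM in WT, 733 to 3848 TPM in SMA). The only markers at 0 in any library were Pax2 of the interneuron list and Cdh5 of the vascular list. What part such cells have in the differences below was not tested. In such material fewer cells of a type and less RNA per cell cannot be told apart.

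The sequences below are the alternative exons whose use is reported further on, read 5′ to 3′ from the GENCODE M21 transcripts on GRCm38. Each AMPA subunit gene holds a pair of exons of equal length, used in the alternative, which encode the flop (upstream) and flip (downstream) versions of a stretch beside the last membrane segment. Capitals mark the bases that differ between the pair. The exons lie at chr3:80691320-80691434 and chr3:80690404-80690518, minus strand, for Gria2 and at chr9:4432773-4432887 and chr9:4427030-4427144, minus strand, for Gria4. The Grin1 exon, at chr2:25311343-25311405, minus strand, encodes a cassette in the extracellular N-terminal domain of the NMDA receptor that is left out of some transcripts.
Gria2 flop: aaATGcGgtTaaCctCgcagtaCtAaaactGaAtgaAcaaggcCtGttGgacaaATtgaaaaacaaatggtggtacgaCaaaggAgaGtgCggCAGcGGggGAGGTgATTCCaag
Gria2 flip: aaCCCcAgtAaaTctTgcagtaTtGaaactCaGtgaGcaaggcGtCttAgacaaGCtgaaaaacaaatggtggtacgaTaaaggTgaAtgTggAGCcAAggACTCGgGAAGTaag
Gria4 flop: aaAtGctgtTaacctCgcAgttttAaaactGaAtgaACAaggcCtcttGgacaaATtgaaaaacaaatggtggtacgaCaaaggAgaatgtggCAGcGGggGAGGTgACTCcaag
Gria4 flip: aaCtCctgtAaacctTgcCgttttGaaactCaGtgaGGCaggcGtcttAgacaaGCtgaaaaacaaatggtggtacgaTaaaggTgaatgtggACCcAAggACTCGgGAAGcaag
Grin1 63-base exon: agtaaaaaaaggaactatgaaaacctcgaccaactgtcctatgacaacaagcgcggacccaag
The 2 exons of the pair differed at 36 bases in Gria1 and Gria2, 32 in Gria3 and 31 in Gria4, an identity of 68.7%, 68.7%, 72.2% and 73.0%.

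In WT motor neurons 18 of the 35 genes had a mean of 10 TPM or more, 13 lay between 1 and 10 TPM and 4 lay below 1 TPM. At least 1 TPM in every one of the 15 libraries was found for 25 genes. The highest means over all libraries were those of Grin2b (107.7 TPM), Gria2 (82.2 TPM), Grin1 (69.4 TPM), the cornichon Cnih2 (68.9 TPM) and Gria4 (64.5 TPM). Cacng3 (47.2 TPM), Cacng2, which encodes stargazin (34.0 TPM), Cacng5 (33.5 TPM), Gria3 (30.5 TPM), Grin2a (20.3 TPM), Grik5 (18.8 TPM) and Grin3a (14.5 TPM) followed. Each of these 12 overlapped with its neighbour in the order across the 15 libraries. All 4 AMPA subunits were at 5 TPM or more throughout, with Gria1 the lowest at 5.58 to 16.5 TPM. These gene values, and the order of the 12, count all annotated transcripts, including short and non-coding ones. From coding transcripts of 1000 bases or more the means were 9.32 TPM for Grin2b, 43.2 TPM for Gria2 and 62.7 TPM for Grin1. They were 32.5 TPM for Cnih2, 64.5 TPM for Gria4, 7.21 TPM for Gria3 and 2.996 TPM for Grik5. At the other end, Grm6, a receptor known from retinal bipolar cells, reached at most 0.0446 TPM, Cacng6 at most 0.622 TPM and the NMDA subunit Grin2c at most 0.476 TPM.

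**Figure D1:**
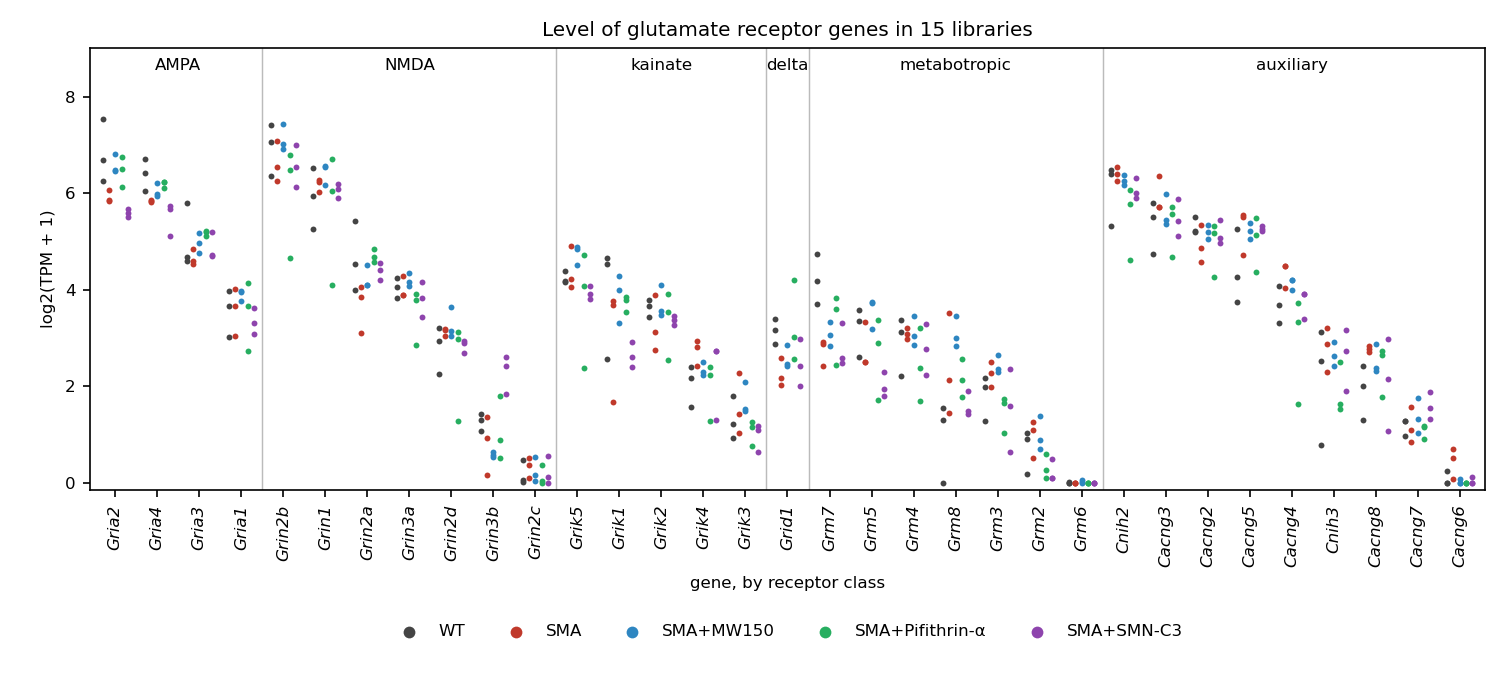
Level of each gene reported by name, as log2(TPM + 1), in every library, grouped by receptor class and ordered by mean level within it. Each point is a library, 3 for each of the 5 groups. Levels count all annotated transcripts of a gene, including short and non-coding ones. By these values Grin2b, Gria2, Grin1, Cnih2 and Gria4 lie highest, and Grm6, Cacng6 and Grin2c lie near 0.

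The first question was which receptor genes differed between SMA and WT motor neurons. None of the 32 genes that passed the low-value filter was called (limma, Benjamini-Hochberg adjusted p under 0.05, taken over all 15425 genes tested), against 0.363% of all genes. Grm6, Cacng6 and Grin2c did not pass the filter of 1 TPM in 3 libraries. At an unadjusted p under 0.05 stood 7 of the 32, against 13.5% of all genes. Of these 2 had a higher mean in SMA (Cacng5 and Grm8), where 10.6% of all genes did, and 5 had a lower mean (Gria2, Gria4, Grid1, Grin2a and Grm7), where 2.88% of all genes did. Without library 1 of WT, 2 of the 32 were at an unadjusted limma p under 0.05 (5.99% of all genes). Without library 1 of SMA there were also 2 (9.2%). Leaving out any other WT or SMA library left 4 to 8 (10.1% to 21.5% of all genes). The 3 SMA libraries lay wholly below the 3 WT libraries for 4 genes (Gria2, Gria4, Grid1 and Grm7; 3.81% of all genes) and wholly above for 2 (Cacng8 and Grik4; 14.5% of all genes). The median log2 difference of the 32 was 0.08, with 17 higher and 15 lower, beside a median of 0.24 and 66.5% higher over all genes tested. Scaled by the median of ratios, which brought the median of all genes to 0.04, the members split 14 higher and 18 lower.

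**Figure D2:**
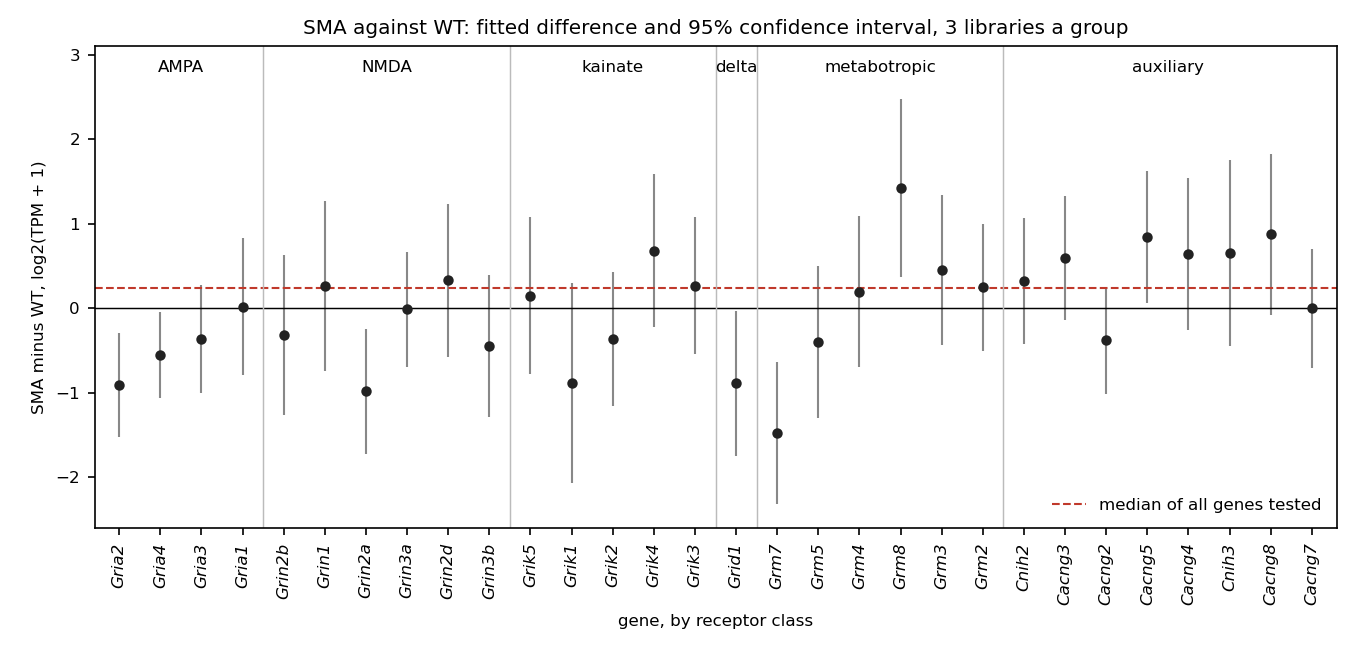
Fitted difference between SMA and WT, on the log2(TPM + 1) scale, for the tested genes reported by name, with 95% confidence intervals from limma (3 libraries a group). The dashed line is the median of all genes tested, 0.24; the intervals of Gria2, Gria4, Grin2a, Grid1 and Grm7 lie below 0 and those of Grm8 and Cacng5 above it, before adjustment for the number of genes tested.

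Among AMPA subunits, Gria2 was at 184, 75.1 and 102 TPM in the WT libraries, against 55.8, 65.4 and 56.9 TPM in SMA. Library 1 of WT was far above the rest, and the groups did not overlap. The difference was -0.91 on the log2 scale (SE 0.29, 95% interval -1.52 to -0.30, n = 3 and 3, limma adjusted p = 0.24). Without library 1 of WT it was -0.55. Gria4, the other abundant AMPA subunit, was at 103, 64.9 and 84.5 TPM in the WT libraries, against 56.8, 54.9 and 56.5 TPM in SMA. Its SMA libraries were close together and all below the lowest WT library (-0.55, SE 0.24, limma adjusted p = 0.35). Gria3 was at 54.2, 23.1 and 24.4 TPM in the WT libraries, against 23.2, 27.5 and 22.01 TPM in SMA. Apart from the first WT library these values were alike, and the groups overlapped (-0.36, 95% interval -1.01 to 0.28). Gria1, which with Gria2 forms the common forebrain AMPA channel, differed by 0.02 (95% interval -0.79 to 0.83).

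Among NMDA subunits, Grin1, the subunit that every NMDA receptor needs, was at 37.3, 60.4 and 91.2 TPM in the WT libraries, against 63.6, 75.9 and 74.4 TPM in SMA. The SMA values lay within the WT range (0.26, 95% interval -0.74 to 1.27). Grin2b, the subunit that prevails early in development, was at 81.4, 168.5 and 133 TPM in the WT libraries, against 74.98, 134 and 92.3 TPM in SMA, again with overlap (-0.32, 95% interval -1.27 to 0.62). Grin2a, which joins the receptor later in development, was at 42.0, 14.8 and 22.1 TPM in the WT libraries, against 7.60, 13.3 and 15.5 TPM in SMA. The highest SMA library was just above the lowest WT library, so the groups overlapped. The difference in Grin2a was -0.98 (SE 0.35, limma adjusted p = 0.29), and it was -0.59 without library 1 of WT. Grin3a, whose product lowers calcium entry through the receptor, was at 13.1, 15.5 and 17.8 TPM in the WT libraries, against 18.5, 13.9 and 13.8 TPM in SMA, a difference of -0.01 (95% interval -0.69 to 0.67). Grin2d and Grin3b differed by 0.33 and -0.45, with overlap in both.

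Of the kainate subunits none reached an unadjusted p under 0.05. Grik5, a subunit that binds kainate with high affinity and needs a partner to form a channel, was at 16.9, 19.8 and 17.1 TPM in the WT libraries, against 17.6, 28.9 and 15.6 TPM in SMA. Its SMA libraries lay on both sides of the WT ones (0.15, 95% interval -0.78 to 1.08). Grik4 was the kainate subunit whose SMA libraries (4.31 to 6.69 TPM) were all above WT (1.95 to 4.25 TPM; 0.68, limma adjusted p = 0.45). Grid1, a delta receptor that binds cerebellins at synapses, was at 9.56, 6.34 and 7.91 TPM in the WT libraries, against 3.09, 4.96 and 3.49 TPM in SMA. All SMA libraries were below all WT libraries (-0.89, SE 0.41, limma adjusted p = 0.37). Of Grid1 TPM, 29.5% came from non-coding transcripts. Its coding TPM was 9.56, 3.69 and 3.38 in the WT libraries and 3.09, 3.003 and 3.49 in SMA, which overlapped (-0.52, limma adjusted p = 0.44).

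Among metabotropic receptors, Grm7, a presynaptic group III receptor with low affinity for glutamate, was at 25.7, 11.9 and 17.2 TPM in the WT libraries, against 6.50, 6.30 and 4.32 TPM in SMA. Every SMA library was below every WT library. The difference was -1.48 (SE 0.40, limma adjusted p = 0.16), the smallest adjusted p of the 32 genes in this comparison, and it was -1.21 without library 1 of WT. Grm8, another group III receptor, had 0, 1.90 and 1.44 TPM in the WT libraries, against 10.5, 3.39 and 1.71 TPM in SMA. The groups overlapped, and the SMA mean rested on its first library (1.42, SE 0.50, limma adjusted p = 0.28; 0.85 without that library). Grm5, a group I receptor that acts through Gq, differed by -0.40 (95% interval -1.30 to 0.50). Grm2, Grm3 and Grm4 differed by 0.25, 0.45 and 0.19, and each overlapped.

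Auxiliary subunits such as stargazin (Cacng2) steer AMPA receptors to the synapse and slow their closing, which need not hold for every gene of this class. A higher mean in SMA was found for 6 of the 8 auxiliary genes tested, where 66.5% of all genes had one. Cnih2 was at 39.1, 83.8 and 88.5 TPM in the WT libraries, against 75.3, 83.3 and 92.1 TPM in SMA, which overlapped (0.33, 95% interval -0.42 to 1.07). Cacng3 was at 25.6, 44.2 and 54.2 TPM in the WT libraries, against 80.9, 51.8 and 51.6 TPM in SMA (0.59, 95% interval -0.14 to 1.33). Cacng2 was at 35.7, 44.2 and 35.9 TPM in the WT libraries, against 22.8, 39.2 and 28.2 TPM in SMA (-0.38, 95% interval -1.01 to 0.26). In these 3 genes the lowest or highest library of a group sat inside the range of the other. Cacng5 was at 12.3, 18.2 and 37.2 TPM in the WT libraries, against 44.6, 25.4 and 45.6 TPM in SMA. Only the third WT library reached the SMA range, and the difference was 0.84 (SE 0.37, limma adjusted p = 0.36), or 0.50 without library 1 of WT.

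Summed by class, AMPA subunit TPM was 353.6, 170.1 and 225 in WT and 143, 159.5 and 150.5 in SMA. The SMA sums were all lower, with means of 151 and 249.7 TPM and a log2 ratio of -0.73. The exact two-sided permutation p was 0.1, the smallest that 3 against 3 libraries allow, and 0.27 after Benjamini-Hochberg adjustment over the 24 class comparisons. Metabotropic sums were 44.9, 40.0 and 40.5 TPM in WT and 36.2, 37.3 and 28.9 TPM in SMA, also without overlap (exact permutation p = 0.1, adjusted 0.27). The log2 ratio was -0.29, and smaller in size from coding transcripts, as given at the end. Of the 7 metabotropic genes tested, 5 had a higher mean in SMA (66.5% of all genes) and 2 a lower one (33.3%). The largest in WT, Grm7, was at 25.7, 11.9 and 17.2 TPM there, against 6.50, 6.30 and 4.32 TPM in SMA. NMDA (240.0 ± 52.9 in WT and 208 ± 36.8 TPM in SMA, mean ± SD, n = 3), kainate (51.3 ± 10.7 and 46.5 ± 9.37 TPM) and auxiliary sums (194 ± 61.7 and 247 ± 13.9 TPM) overlapped. The AMPA ratio was -0.37 when only coding transcripts of 1000 bases or more were summed, and -0.39 without library 1 of WT.

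**Figure D3:**
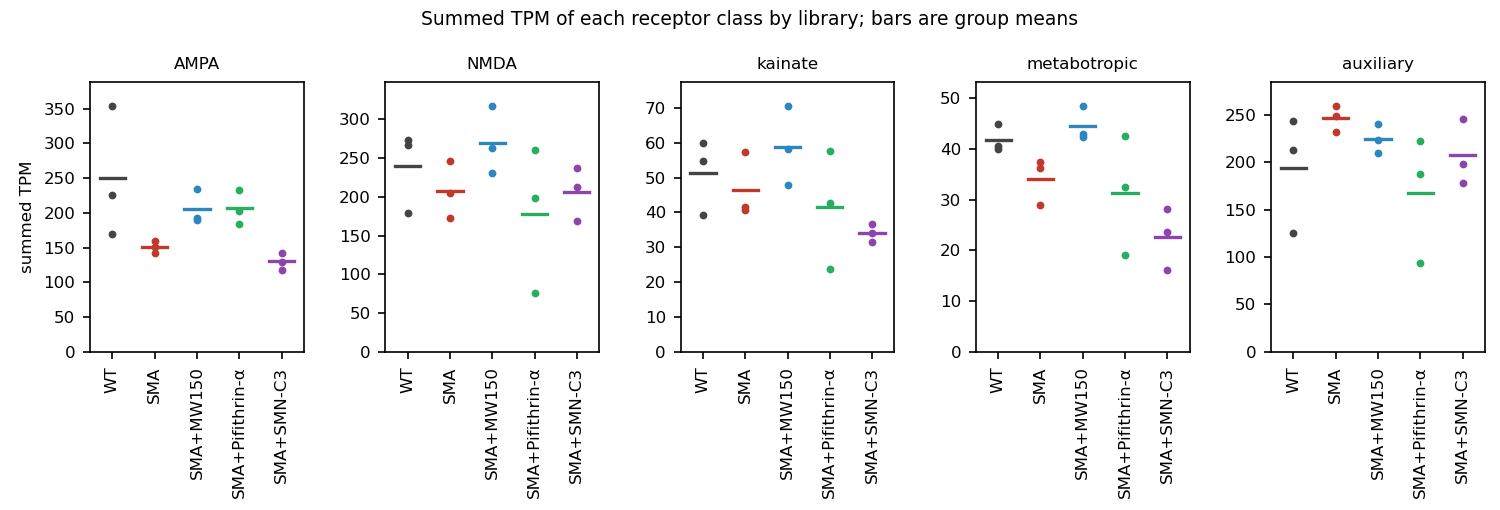
Summed TPM of the members of 5 receptor classes in every library, with group means as bars and a separate vertical scale for each class. AMPA sums are lower in all 3 SMA (143 to 159.5) and all 3 SMA+SMN-C3 (118 to 142.5) libraries than in the other groups (170.1 to 353.6).

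The next question was what each treatment did in SMA mice. The 3 comparisons share the SMA libraries, so the values stand side by side and are not counted as independent of each other. With MW150, none of the 32 genes was called (0.00648% of all genes), and Gria2 alone had an unadjusted limma p under 0.05 (1.9% of all genes, 1.51% in the higher and 0.389% in the lower direction). Gria2 was at 111.3, 87.0 and 88.7 TPM with MW150, all above the SMA libraries (0.67, SE 0.29, limma adjusted p = 1; 0.31 from coding transcripts of 1000 bases or more). Gria4 at 73.1, 62.1 and 59.99 TPM and Grin2a at 21.7, 16.1 and 16.1 TPM were also above SMA in every library (0.21 and 0.57). From coding transcripts of 1000 bases or more, Grin2a was at 18.03, 14.04 and 12.8 TPM with MW150. In SMA it was at 7.43, 11.77 and 13.77 TPM by that count, which overlapped. By gene values, Gria2, Gria4 and Grin2a were the only members that did not overlap with SMA (10.9% of all genes). All 3 of them were higher (7.53%) and none lower (3.41%). In all, 24 members had a higher mean (57.9% of all genes) and 8 a lower mean (42.1%).

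With Pifithrin-α, again no member was called (0.00648% of all genes), and 4 of 32 were at an unadjusted limma p under 0.05 (10.7% of all genes), 2 higher (3.16%) and 2 lower (7.55%). Grin2a was at 22.9, 24.4 and 27.7 TPM, above all SMA libraries (1.03, SE 0.35, limma adjusted p = 0.46). Grid1 was at 17.5, 7.08 and 4.91 TPM (1.004, SE 0.41, adjusted p = 0.46), and its first library carried the difference, which was 0.53 without it (0.45 with all libraries from coding transcripts of 1000 bases or more). Cnih2 was at 65.7, 54.0 and 23.3 TPM (-0.92, SE 0.35) and Cacng4, another AMPA receptor regulatory protein, at 12.1, 9.12 and 2.08 TPM (-1.44, SE 0.43). Both were below SMA in every library, lowest in library 3, and came to -0.48 and -0.80 without it. Libraries did not overlap with SMA for 4 genes that were higher (Gria2, Gria3, Gria4 and Grin2a; 5.53% of all genes) and 5 that were lower (Cacng3, Cacng4, Cnih2, Grik4 and Grm3; 9.76% of all genes). From coding transcripts of 1000 bases or more, Gria3 was at 17.0, 6.15 and 4.75 TPM with Pifithrin-α. In SMA it was at 7.39, 7.43 and 7.32 TPM by that count, which overlapped. Gria2 was at 107, 89.9 and 68.6 TPM (0.55, and -0.041 from coding transcripts of 1000 bases or more), and Gria4 at 73.9, 67.6 and 74.1 TPM. The signs were 10 higher (34.4% of all genes) and 22 lower (65.5%), or 16 and 16 when scaled by the median of ratios.

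With SMN-C3, none of the 32 was called (0.0648% of all genes), and 1 was at an unadjusted limma p under 0.05 (8.53% of all genes), which was higher (0.59%), with none lower (7.94%). That gene was Grin3b, which encodes an NMDA subunit abundant in somatic motor neurons of adult rodents. It was at 2.57, 5.05 and 4.36 TPM against 0.117, 0.893 and 1.56 TPM in SMA and 1.46, 1.11 and 1.67 TPM in WT. All 3 SMN-C3 libraries were above all SMA and WT libraries (1.47 against SMA, SE 0.40, limma adjusted p = 0.23; 1.02 against WT, SE 0.40, adjusted p = 0.67). The gene lies at chr10:79970715-79977190 and overlaps Tmem259 on the other strand. Whether the libraries kept strand is not given in the sources used here, so reads of the 2 genes may not be separable where they overlap. The same holds for Cnih2 with Yif1a and for Grin2d with Kdelr1. Grin2a was at 22.4, 17.4 and 20.3 TPM, above all SMA libraries (0.73, limma adjusted p = 0.59). Gria2 at 46.9, 50.1 and 44.1 TPM and Gria4 at 52.5, 33.5 and 49.8 TPM were below all SMA libraries (-0.33 each, adjusted p = 0.81 and 0.75). In all, 8 members did not overlap with SMA (20.7% of all genes), 2 of them higher (2.52%) and 6 lower (Cacng4, Gria2, Gria4, Grin2d, Grm2 and Grm5; 18.2% of all genes). The signs were 9 higher (26.6% of all genes) and 23 lower (73.2%), or 14 and 18 when scaled by the median of ratios.

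The remaining abundant members with treatment were as follows. Grin2b was at 173, 129 and 119 TPM with MW150, at 109.8, 88.6 and 24.1 TPM with Pifithrin-α and at 69.1, 128 and 92.1 TPM with SMN-C3. Grin1 was at 91.5, 93.1 and 71.3 TPM, at 103, 65.1 and 16.0 TPM, and at 58.6, 66.9 and 72.2 TPM in the same order. Library 3 of SMA+Pifithrin-α was the lowest of the 15 for both. Cacng3 was at 42.3, 61.7 and 39.9 TPM, at 51.2, 46.6 and 24.7 TPM, and at 33.3, 57.9 and 42.0 TPM. Cacng2 was at 39.6, 35.5 and 32.0 TPM, at 38.8, 35.1 and 18.3 TPM, and at 32.4, 42.3 and 30.3 TPM. Cacng5 was at 40.5, 36.0 and 32.3 TPM, at 43.6, 34.0 and 19.7 TPM, and at 36.3, 37.2 and 39.1 TPM. Of these 3 regulatory proteins, only Cacng3 with Pifithrin-α lay wholly outside its SMA range. Gria3 was at 35.0, 30.4 and 26.0 TPM, at 35.7, 33.7 and 36.2 TPM, and at 35.6, 25.3 and 24.9 TPM. Grik5 was at 28.7, 21.7 and 27.6 TPM, at 25.4, 15.9 and 4.16 TPM, and at 13.98, 15.9 and 13.0 TPM. Grin3a was at 19.3, 16.9 and 15.7 TPM, at 14.1, 12.8 and 6.21 TPM, and at 9.72, 13.2 and 16.8 TPM. For Grik5 and Grin3a every treated group overlapped with SMA. Cnih2 was at 70.6, 81.9 and 75.4 TPM with MW150 and at 58.5, 78.4 and 63.4 TPM with SMN-C3. Grid1 was at 6.24, 4.35 and 4.53 TPM with MW150 and at 6.83, 4.34 and 3.01 TPM with SMN-C3. Both genes overlapped with SMA in these 2 groups.

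Class sums followed the abundant members. AMPA sums were 234, 192 and 189 TPM with MW150, 233, 203 and 184 TPM with Pifithrin-α and 142.5, 118 and 130.0 TPM with SMN-C3. The first 2 sets were above all SMA sums and the last below them (exact permutation p = 0.1 in each, adjusted 0.27). Metabotropic sums were higher than SMA with MW150 (42.4 to 48.4 TPM) and lower with SMN-C3 (16.2 to 28.1 TPM), auxiliary sums were lower with Pifithrin-α (93.3 to 223 TPM) and kainate sums were lower with SMN-C3 (31.6 to 36.7 TPM), each without overlap and at the same p. The other 15 of the 24 class comparisons overlapped, with an exact permutation p of 0.2 or more. From coding transcripts of 1000 bases or more, AMPA sums with Pifithrin-α, metabotropic sums with MW150 and kainate sums with SMN-C3 overlapped with SMA.

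Against WT, which the 3 treated groups and SMA share, no member was called with MW150 (0.143% of all genes), Pifithrin-α (0.117%) or SMN-C3 (0.0194%). Unadjusted limma p was under 0.05 for 3 of 32 genes with MW150 (10.2% of all genes), 3 with Pifithrin-α (5.78%) and 8 with SMN-C3 (7.31%). Libraries did not overlap with WT for 6 members with MW150 (19.9% of all genes), 1 with Pifithrin-α (6.87%) and 8 with SMN-C3 (12.8%). Grm7 was at 7.38, 8.98 and 6.10 TPM with MW150, at 11.05, 13.2 and 4.401 TPM with Pifithrin-α and at 5.03, 4.61 and 8.85 TPM with SMN-C3. It was below all WT libraries with MW150 and SMN-C3 (-1.13 and -1.41, limma adjusted p = 0.44 and 0.52; -0.71 and -0.94 from coding transcripts of 1000 bases or more), and below WT with overlap with Pifithrin-α (-0.92, adjusted p = 0.83). Against SMA, Grm7 differed by 0.34, 0.56 and 0.06 in these groups, with overlap in all. Grm8 was at 6.12, 9.93 and 6.97 TPM with MW150, all above the WT libraries (2.15, SE 0.50, limma adjusted p = 0.15). It was at 3.38, 2.43 and 4.94 TPM with Pifithrin-α (1.22, adjusted p = 0.81) and at 1.68, 1.78 and 2.73 TPM with SMN-C3 (0.66, adjusted p = 0.71). With SMN-C3, Gria2 differed from WT by -1.24 (SE 0.29, limma adjusted p = 0.30; -0.54 from coding transcripts of 1000 bases or more), Gria4 by -0.88 (SE 0.24, adjusted p = 0.52) and Grm5 by -1.17 (SE 0.43, adjusted p = 0.66), each without overlap.

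An F test over the 5 groups called none of the 32 genes (limma, 0.22% of all genes called) and put 7 at an unadjusted p under 0.05 (9.46% of all genes). In order of that p they were Gria2 (adjusted p = 0.27), Grin3b (0.32), Grm8 (0.34), Grm7 (0.42), Gria4 (0.46), Grm5 (0.48) and Cacng4 (0.50). Without the 2 libraries of highest mitochondrial share, Gria2 passed the threshold. The share of all genes called in that fit was not recorded, so the call is not read as particular to Gria2.

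The transcript table showed what these gene values are made of. For Gria2, 47.4% of the TPM over all libraries came from transcripts annotated as retained introns or as targets of nonsense-mediated decay, which do not encode the full subunit. Retained-intron TPM was 86.9, 18.0 and 37.0 in WT and 8.61, 17.1 and 12.9 in SMA. Coding Gria2 TPM was 44.5, 46.7 and 51.8 in WT and 41.7, 42.6 and 38.7 in SMA. All SMA libraries were below all WT libraries in both. With gene values built only from coding transcripts of 1000 bases or more, the Gria2 difference was -0.21 (limma adjusted p = 0.71), not -0.91. This alternative was chosen after the data had been seen.

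**Figure D4:**
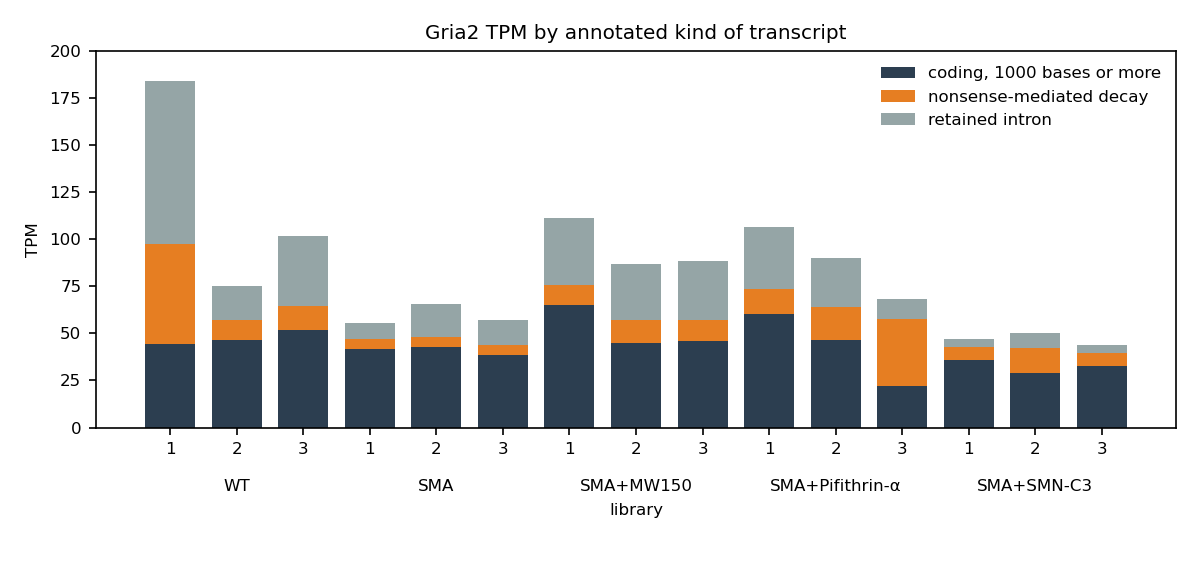
Gria2 TPM in each library, split by annotated kind of transcript (stacked bars that sum to the gene value; numbers 1 to 3 are the libraries of a group). The coding part spans 38.7 to 51.8 TPM over WT and SMA, while the retained-intron part spans 8.61 to 86.9 TPM.

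The share of Gria2 among the 4 AMPA subunits turned with this choice. From the gene table it was 47.1 ± 4.38% in WT and 39.3 ± 1.62% in SMA (mean ± SD, n = 3), with no overlap (WT 44.1% to 52.2%, SMA 37.8% to 41.0%). From coding transcripts of 1000 bases or more it was 32.5 ± 5.57% and 35.5 ± 2.26%, which overlapped. The 4 transcripts of Gria4 are all coding and of 1000 bases or more, so its difference of -0.55 is the same in the coding alternative by construction. Grm7 came to -1.03 in that alternative (limma adjusted p = 0.22).

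In Grin2b the gene value also lay far from that of coding transcripts. Of its TPM, 65.1% came from a processed transcript of 241 bases and 3 exons at chr6:136171763-136173377, minus strand, of which 193 bases are shared with its long coding transcripts, and 91.3% came from transcripts shorter than 1000 bases. The ratio of Grin2b to Grin2a, which falls during maturation in many neurons, was above 1 in 14 of 15 libraries by the gene table (0.870 to 11.4, median 6.00). From coding transcripts of 1000 bases or more it was above 1 in 0 of 15 (0.107 to 0.937, median 0.652). The order of these NMDA subunits therefore turned with the transcripts counted. Further members of this kind were Grik5 (84.1% of TPM from non-coding transcripts), Gria3 (75.4%), Grm5 (66.9%) and Cnih2 (52.8%). Of Cacng8 TPM, 92.0% came from a coding transcript of 535 bases, and the gene values of Cacng6, Cacng7 and Cacng8 were 2.0 times the sum of their transcripts.

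Among single transcripts, 92 of the 170 of these genes passed the filter. None was called for SMA against WT (limma, 0.221% of all transcripts called), and 16 were at an unadjusted p under 0.05 (12.2% of all transcripts), 6 higher (8.95%) and 10 lower (3.23%). The smallest adjusted p belonged to a Grik2 retained-intron transcript of 4365 bases, at 9.03, 4.02 and 1.99 TPM in WT and 0.181, 1.08 and 0 TPM in SMA (-1.98, SE 0.47, adjusted p = 0.13). All WT libraries were above all SMA libraries. A coding Grin3a transcript of 7491 bases had 0, 0 and 1.92 TPM in the WT libraries, against 6.30, 6.66 and 4.89 TPM in SMA (2.27, SE 0.54, adjusted p = 0.14). The summed Grin3a value did not move with it, as given above. Of Gria2, 2 retained-intron transcripts, the decay transcript and the coding flop transcript stood among the 10 that were lower.

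The exons printed above gave the share of flip and flop. The flip share is the TPM of coding transcripts with the flip exon over that of coding transcripts with either exon. It leaves out transcripts with neither, such as the most abundant Gria4 transcript, which is annotated as coding and holds 44.1% of that gene's TPM. In Gria2 the flip share was 43.5%, 77.5% and 78.9% in the WT libraries and 83.3%, 78.3% and 82.3% in the SMA libraries. Among these 6 libraries flip was the larger part in all but library 1 of WT, and the groups overlapped (66.6 ± 20.1% and 81.3 ± 2.65%, exact permutation p = 0.2, adjusted 0.6 over 24 exon comparisons). For Gria4 it was 34.9%, 69.4% and 73.3% in WT and 69.5%, 59.4% and 72.3% in SMA, with overlap. Library 1 of WT and library 3 of SMA+Pifithrin-α, the 2 of highest mitochondrial share, had the lowest flip share of the 15 in Gria2 (43.5% and 31.9%) and in Gria4 (34.9% and 29.3%). Mean flip share was 65.8% in WT and 71.4% in SMA for Gria1, and 62.0% and 63.6% for Gria3, both with overlap. The flip and flop transcripts also differ elsewhere, in Gria2 in total length (4026 and 10371 bases), so these shares do not rest on the exon alone.

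The 63-base exon of Grin1 was carried by 83.1%, 71.5% and 78.9% of coding Grin1 TPM in WT and by 47.6%, 62.2% and 57.9% in SMA. All SMA libraries were below all WT libraries, by 21.9 points in the mean (77.8 ± 5.87% and 55.9 ± 7.50%). The exact permutation p was 0.1, the smallest possible, and 0.6 after adjustment over the 24 exon comparisons. The share was 60.8%, 70.1% and 66.4% with MW150, 62.98%, 72.1% and 71.9% with Pifithrin-α and 69.1%, 54.6% and 62.1% with SMN-C3. Only the Pifithrin-α libraries lay wholly above SMA (13.1 points, exact permutation p = 0.1, adjusted 0.6). The main transcripts with and without the exon were at 18.8, 34.4 and 51.1 TPM and at 3.93, 16.3 and 17.1 TPM in WT. In SMA they were at 23.5, 38.7 and 39.4 TPM and at 32.9, 21.4 and 25.9 TPM. The form without the exon was thus higher in every SMA library than in any WT library, while the form with it overlapped. The 2 transcripts also differ in their first exon (467 and 559 bases), so the share may reflect either end. This exon was chosen after its values had been seen. Another Grin1 exon, which encodes a cassette near the C terminus, was carried by 3.59% of coding TPM in WT and 2.63% in SMA.

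**Figure D5:**
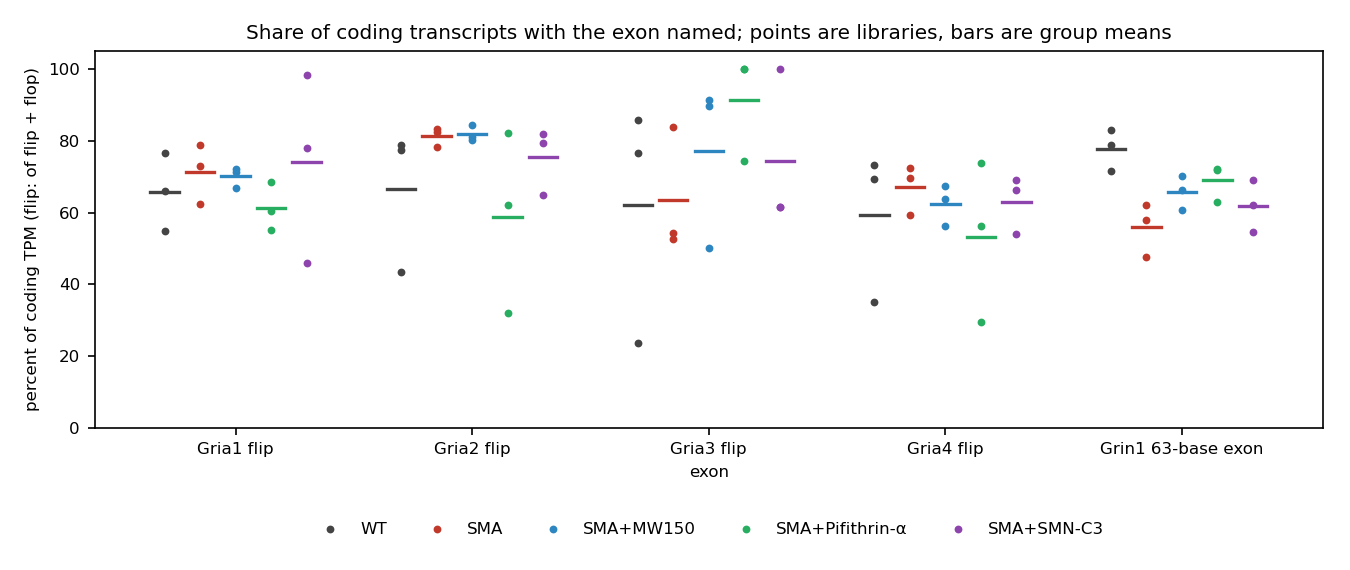
Flip share of Gria1 to Gria4 (percent of the TPM of coding transcripts with the flip or the flop exon) and percent of coding Grin1 TPM with the 63-base exon. Points are libraries and bars are group means; for Grin1 the SMA points (47.6% to 62.2%) lie below all WT points (71.5% to 83.1%), and for the 4 flip exons WT and SMA overlap.

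Genes that work with these receptors were followed in 4 lists. No gene of the 4 was called for SMA against WT (0.363% of all genes), and values at an unadjusted limma p under 0.05 are given as log2 differences. Of all genes 66.5% had a higher and 33.3% a lower mean, and 10.6% and 2.88% did so at an unadjusted p under 0.05. Of 22 scaffold and anchoring genes tested, 10 had a higher and 12 a lower mean. Homer1, which ties group I metabotropic receptors to the postsynaptic density, differed by -0.66 (adjusted p = 0.35) and Homer3 by 1.496 (adjusted p = 0.24). Of 24 further receptor partners, 14 were higher and 10 lower. These included Neto1, a kainate and NMDA receptor partner (-0.999), and the AMPA receptor partners Cpt1c (0.99) and Shisa9 (0.94). Of 10 glutamate transport and metabolism genes, 8 were higher and 2 lower, with the vesicular transporter Slc17a6 at -0.85 and glutamine synthetase, Glul, which astrocytes express, at 0.87. Of 13 genes of group I receptor signalling, 5 were higher and 8 lower, with Plcb1 at -0.60 and the kinase gene Prkcb at -1.19 (adjusted p = 0.23). For comparison, of 19 GABA and glycine receptor genes, 6 were higher and 13 lower (median -0.24). Gabra2 (-0.87), Gabrg3 (-0.99), Glra2 (-0.84) and Glrb (-0.77) were the 4 at an unadjusted p under 0.05, and none was called.

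Over the 15 libraries, the genes most like Gria2 in log2(TPM + 1), among 10009 with a mean of 5 TPM or more, were Tnik (Pearson r = 0.95), Gm38393 (0.94) and Guf1 (0.94). Those most like Grin1 were Il17d (0.98), Epb41l1 (0.98) and Ptprs (0.97), and those most like Grm5 were Zeb2 (0.91), Sgip1 (0.91) and Ank3 (0.90). Among members, Gria2 was most like Gria4 (0.84) and Grm7 (0.74), and Grin1 was most like Grin2d (0.95), Cnih2 (0.87) and Cacng4 (0.85). Gria2 and Grin1 themselves were at 0.01. These are descriptions over libraries that share groups and scaling. Library 3 of SMA+Pifithrin-α was the lowest of the 15 for Grin1, Grin2d, Cnih2 and Cacng4. Library 1 of WT was the highest of the 15 for Gria2, Gria4 and Grm7.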

How the data were processed

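The authors deposited TPM per gene (36144 symbols) and per transcript (118489), with all 15 libraries as columns. Reads of 100 bases, sequenced in pairs, were quantified with kallisto 0.44.0, and GRCm38.p6 is named, per the submitters' processing notes. Each library sums to 1000000 TPM, so its depth is unknown. Transcripts were placed with GENCODE M21 (98.6% matched). Here limma 3.58.1 (R 4.3.3) was fitted to log2(TPM + 1) of the 15425 genes with 1 TPM or more in 3 or more libraries. The fit had a mean per group and an intensity trend, with Benjamini-Hochberg adjustment over all genes within each of 7 comparisons. Class sums and exon shares were tested by exact two-sided permutation over libraries. The scripts were tested on simulated data. Values per library are given for the 12 members with the highest mean and those at an unadjusted p under 0.05 for SMA against WT; other members named were chosen after their values were seen. Members and lists were chosen with earlier results of these data known. Alternatives varied the pseudocount, filter, scaling, weights, covariates and libraries. Results of some members are not reported here by name; they remain in the counts and sums.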

Additional observations from a re-analysis of the deposited data

How the results depend on the processing

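Of 27 member differences at an unadjusted p under 0.05, no alternative reversed the sign (454 estimates), and 6 passed the adjusted threshold, all with array weights. These 27 were picked by that p in the same libraries, so a reversal was unlikely from the start. Over all tested members the sign changed in 6.49% of 2373 estimates. With 1 library left out at a time it changed in 9.38% of 1344 estimates. Members called with array weights numbered 6 for SMA+Pifithrin-α against SMA (Cacng4, Cnih2, Cnih3, Gria2, Grin2a and Grm7; 10.2% of all genes were called), 1 for SMA+SMN-C3 against SMA (Grin3b; 1.5%), 1 for SMA+MW150 against WT (Grm8; 0.59%), 1 for SMA+SMN-C3 against WT (Gria2; 0.253%) and 10 in the F test (20.9%). Those weights were estimated gene by gene and gave library 2 of SMA+Pifithrin-α a weight of 5.71 and library 1 of WT 0.138. The default estimator had been run first and did not converge (a weight of 276 for that Pifithrin-α library), so it was replaced after its result was seen; it called 10 members for SMA+Pifithrin-α against SMA (33.4% of all genes), 7 against WT (24.4%) and 18 in the F test (64%). Without the 2 libraries of highest mitochondrial share the F test called 1 member (Gria2), with the share of all genes called not recorded.

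Scaled by the median of ratios, the log2 ratio of class sums was 0.74 for AMPA with Pifithrin-α against SMA, 0.054 for AMPA, 0.016 for auxiliary, -0.17 for kainate and 0.25 for NMDA with SMN-C3 against SMA, and -0.56 for metabotropic in SMA against WT. From coding transcripts of 1000 bases or more, an alternative added after seeing the data, AMPA came to 0.26 with MW150 and 0.23 with Pifithrin-α against SMA, and metabotropic to -0.080 for SMA against WT. The cause was not tested. Leaving out each library in turn called no member in any comparison that uses its group. The remaining comparisons were not read in those fits.

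With the replicate number as a block, 0 members were called in every comparison. Same-numbered libraries deviated together no more than others (median r 0.008, 4 of 30 pairs over 0.1, and 4 of 15 libraries most like their own number). With no counts deposited here, the sampling error of low genes such as Grm8 and Grin3b cannot be given.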
